A study of Caenorhabditis elegans with 2 samples.

Results

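The genes described here are 5 actin genes (act-1, act-2, act-3, act-4 and act-5) and 4 tubulin genes (tba-1, tba-2, tbb-1 and tbb-2) of Caenorhabditis elegans. They were chosen by name, as highly expressed cytoskeletal genes outside protein synthesis, and are 9 of 19973 nuclear protein-coding genes. Occupancy at their promoters was read from ChIP-seq peak lists of NHR-237, a nuclear hormone receptor, in whole L1 larvae of pooled sex. There was 1 group of 2 biological replicates. Neither an untagged strain nor an input was analysed here. All worms were of strain OP228, which carries the allele unc-119(ed3) and the integrated transgene wgIs228, the source of the eGFP fusion of the factor. The labels describe the experiment as directed at the eGFP fusion but list the antibody as nhr-237, so whether the tag or the receptor itself was recognised, and with it whether the untagged receptor contributed to the signal, is not settled. The promoter that drives the transgene is not named in the labels, and whole larvae mix all tissues.

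Actin polymerises into the thin filaments of muscle and into the cortex and microvilli of other cells. Tubulin, a dimer of an alpha and a beta subunit, polymerises into the microtubules of the spindle, of axons and of intracellular transport. Worms have several genes for each. The genes act-1, act-2, act-3 and act-4 encode near-identical actins used in muscle and other tissues, and act-5 encodes a diverged actin of intestinal microvilli. The genes tba-1 and tba-2 encode alpha tubulins, and tbb-1 and tbb-2 beta tubulins, which are the widely used forms of the early embryo. In whole larvae, occupancy in few cells and weak occupancy in many cells cannot be told apart.

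Of the 9 genes, 3 had a promoter summit in the IDR list, which holds the regions that met the authors' threshold on the irreproducible discovery rate. They were tba-2, act-2 and tbb-2. This is 33.3% of the genes (95% exact interval 7.49 to 70.1), where 4.66% of all protein-coding genes had one. A summit is the point of highest signal in a region, and a promoter was taken from 1000 bp before to 200 bp after any annotated transcript start. Among the actins 1 of 5 had such a summit, and among the tubulins 2 of 4. With 9 genes the interval is wide, and it covers counting of genes only. The sequencing depth behind the lists is unknown.

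The list from both replicates pooled reaches below that threshold and added act-4, tba-1 and tbb-1. It held promoter summits for 6 of the 9 genes (66.7%, 29.9 to 92.5, against 18.4% of all genes), which were 2 of the 5 actins and all 4 tubulins. The same 6 genes had a promoter summit in both replicates' own lists, as did 21.7% of all genes. The replicate lists have no threshold and reach down to very weak regions. Replicate 1 gave a promoter summit to 7 of the 9 genes (against 35.0% of all genes) and replicate 2 to 8 of them (against 39.4%). The genes act-1 and act-3 had one in replicate 2 only, and act-5 in replicate 1 only.

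**Figure D1:**
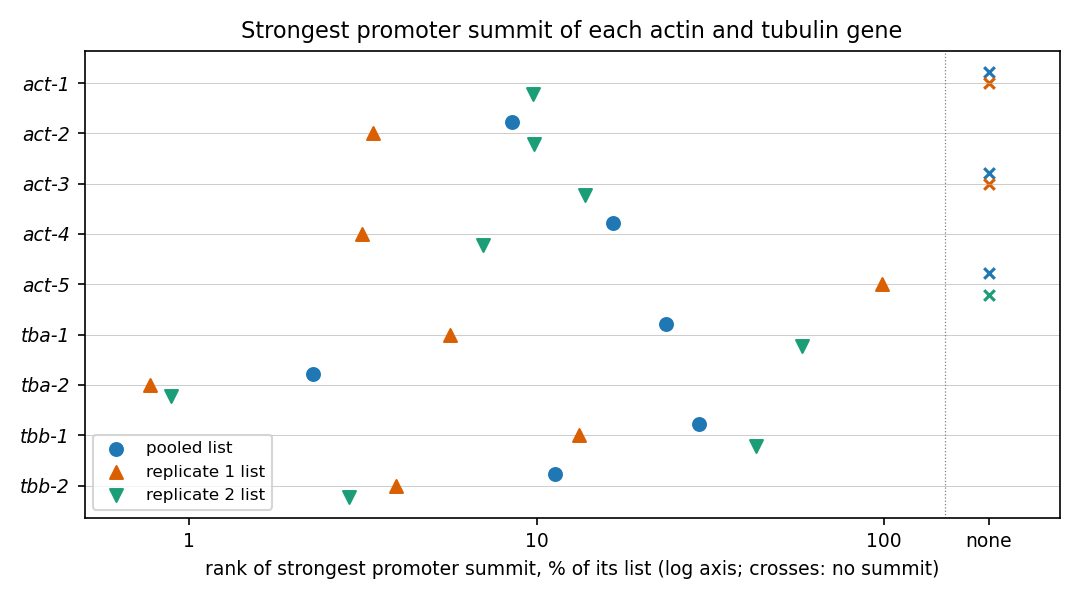
Rank of the strongest promoter summit of each gene as a percentage of its list (horizontal log axis, smaller is stronger), in the pooled, replicate 1 and replicate 2 lists; crosses mark lists with no promoter summit of that gene. The gene tba-2 is leftmost in all 3 lists, at 2.27%, 0.773% and 0.886%, while act-5 has only a replicate 1 region at 98.3%.

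The windows of 101 bases around 4 of the pooled summits show what lay under them. They are those of act-2 and tbb-2, which passed the IDR threshold, and of act-4 and tbb-1, which did not. Each is printed 5′ to 3′ on the strand of its gene, from the RefSeq sequence of WBcel235, with the summit as base 51. Capitals mark matches to GCGC and to GAGAGA or its reverse complement. All 4 printed windows hold GCGC. Of the pooled windows not printed, that of tba-2 holds it, and those of tba-1 and of a weaker act-4 region do not. On build ce11 they are chrV:11078497-11078597 (act-2, minus strand), chrIII:4018193-4018293 (tbb-2, minus strand), chrX:4962389-4962489 (act-4, plus strand) and chrIII:10742664-10742764 (tbb-1, minus strand).
act-2: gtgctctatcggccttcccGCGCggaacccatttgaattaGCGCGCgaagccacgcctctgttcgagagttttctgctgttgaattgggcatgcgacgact
tbb-2: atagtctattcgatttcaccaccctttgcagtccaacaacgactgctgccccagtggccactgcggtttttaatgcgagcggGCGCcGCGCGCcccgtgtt
act-4: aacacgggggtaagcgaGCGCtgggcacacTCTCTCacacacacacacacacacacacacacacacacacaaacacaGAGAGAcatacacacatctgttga
tbb-1: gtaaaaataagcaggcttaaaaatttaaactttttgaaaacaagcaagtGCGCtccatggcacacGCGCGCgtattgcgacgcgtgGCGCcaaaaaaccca

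Among the alpha tubulins, tba-2 had the strongest promoter region of all 9 genes, seen alike in both replicates. The gene lies on chromosome I from 12964674 to 12966795 on the minus strand, and the region spans 12966751 to 12967114. Its summit was 138 bp upstream of the outer of 2 annotated starts, in intergenic sequence. The signal, a score of the authors' peak caller that ranks regions within 1 list, was 117 in the pooled list, where it ranked 175 of 7699. It was 68.0 in replicate 1 (rank 168 of 21745) and 48.5 in replicate 2 (rank 228 of 25720). Both replicate summits lay within 11 bp of the pooled summit, at 131 and 149 bp upstream. No other protein-coding gene had its promoter at this summit. Among the 3679 genes with a pooled promoter summit, tba-2 was number 182 by signal.

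The tba-1 promoter held a weaker region that the replicates did not share evenly. The gene lies on chromosome I from 9785781 to 9787624 on the minus strand. Its region, 9787891 to 9788254, had its summit 449 bp upstream of the nearest start, with a pooled signal of 38.4 (rank 1812). The signal was 26.5 in replicate 1 (rank 1228) and 11.2 in replicate 2 (rank 14968), so the region stood near the top of the replicate 1 list and below the middle of the other. The same summit lay 652 bp upstream of cox-5B, a gene for a subunit of cytochrome c oxidase that is transcribed the other way. A much stronger IDR peak (signal 137, rank 109) lay 1098 bp upstream of tba-1, just beyond the promoter as counted here, and 3 bp from the cox-5B start. Counting 2000 bp upstream, or any overlap of a region with the promoter, would give that peak to tba-1 too.

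Of the beta tubulins, tbb-2 had an IDR peak and tbb-1 a weak region shared with a neighbour. The gene tbb-2 lies on chromosome III from 4015910 to 4017627 on the minus strand, and its region from 4018061 to 4018424. The pooled signal was 55.9 (rank 871), not far above the IDR limit of 52.6. It was 31.5 in replicate 1 (rank 860) and 29.4 in replicate 2 (rank 744), so the replicates placed this region alike. The pooled summit was 616 bp upstream of the only annotated start. In a promoter that reached only 500 bp upstream it would not count. The replicate 1 summit lay further out, at 692 bp.

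The gene tbb-1 lies on chromosome III from 10740868 to 10742432 on the minus strand. Its region, 10742532 to 10742895, had a pooled signal of 35.0 (rank 2265), with 18.6 in replicate 1 (rank 2862) and 12.5 in replicate 2 (rank 11025). The summit was 282 bp upstream of tbb-1 and 96 bp upstream of rib-2, a gene for a glycosyltransferase of heparan sulfate synthesis on the other strand. Given to the nearest gene alone, the region would go to rib-2.

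Among the actins, act-2 alone had an IDR peak, and that peak rested more on replicate 1. The genes act-1, act-2 and act-3 form a cluster on chromosome V, where act-3 (11071690 to 11074498) and act-2 (11076777 to 11078154) are on the minus strand and act-1 (11081052 to 11082415) on the plus strand. The act-2 region spans 11078365 to 11078728, with its summit 393 bp upstream of act-2 and 2505 bp upstream of act-1. The pooled signal was 64.7 (rank 653). It was 34.0 in replicate 1 (rank 735) and 19.0 in replicate 2 (rank 2529), where the deposited −log10 q was 0.55 against 2.47 in replicate 1. The 3 summits lay within 3 bp of each other, so the position was shared although the rank was not.

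The other genes of the cluster had no pooled promoter summit. For act-1 the replicate 2 list held a region with its summit 972 bp upstream (signal 19.1, rank 2507), near the outer edge of the promoter. For act-3, which has 3 annotated starts, that list held 1 summit 304 bp upstream of the inner start (17.3, rank 3546) and 1 that lay 523 bp upstream of the outer starts (14.2, rank 7173). Replicate 1 had no promoter summit of either gene. The only pooled summit in the space between act-2 and act-1 was the act-2 one.

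The X-linked act-4 gene (4960621 to 4964413, plus strand) held its main region inside the gene. It has starts 2254 bp apart, and the stronger region, 4962257 to 4962620, had its summit in an intron 436 bp upstream of the inner start. Its pooled signal was 45.9 (rank 1276), with 35.4 in replicate 1 (rank 684) and 17.1 in replicate 2 (rank 3716). A weaker region lay near the outer start, with its pooled summit 142 bp downstream of it (28.4, rank 4107). There the order of the replicates was the opposite, with 14.0 in replicate 1 (rank 7077) and 21.1 in replicate 2 (rank 1801). The 2 regions of this gene thus leaned to different replicates.

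The gut actin gene act-5 (chromosome III, 13604412 to 13606066, minus strand) was nearly empty. No pooled region had its summit within 3000 bp of the gene. Its promoter held 1 replicate 1 region, 365 bp upstream, with a signal of 9.45 and a rank of 21376 of 21745, close to the bottom of that list, and no summit in replicate 2.

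**Figure D2:**
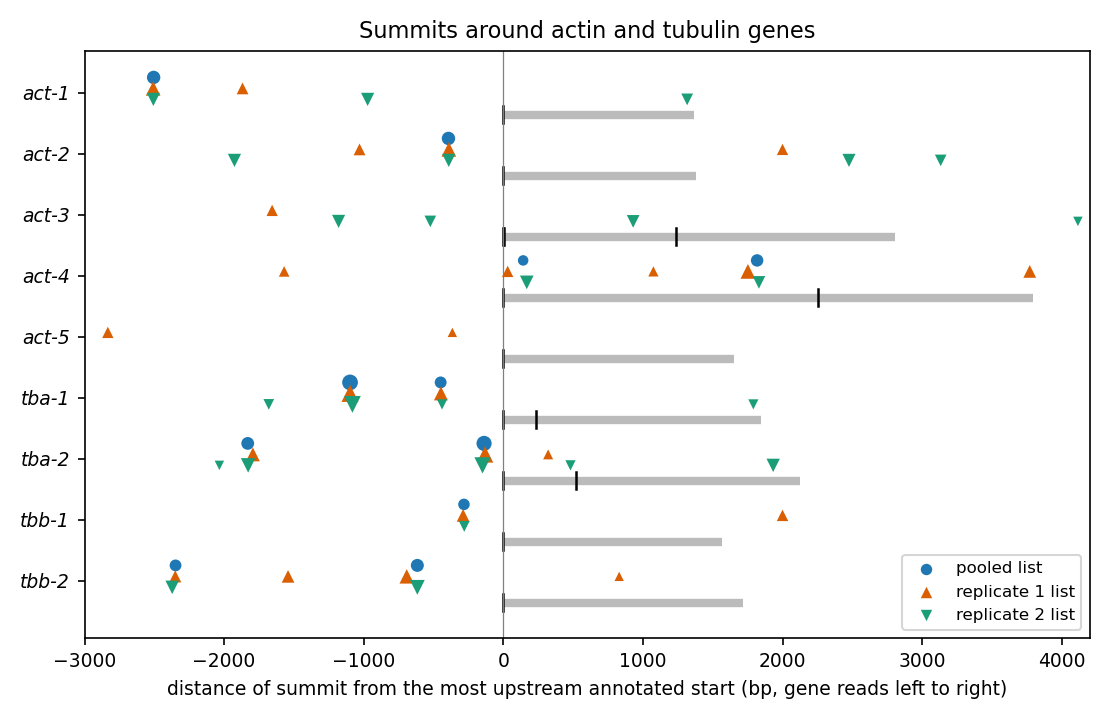
Position of summits from 3000 bp before to 3000 bp after each gene, as distance in bp from its most upstream annotated start (horizontal axis), with the gene as a grey bar, its starts as black ticks, and larger symbols for stronger ranks. The axis is cut on the right, so the summits furthest past the start at act-3, act-4, tba-1 and tbb-1 are not shown. The strongest summit shown lies 1098 bp upstream of tba-1, outside its promoter and at the cox-5B start (signal 137); the strongest promoter summits lie upstream of tba-2, act-2 and tbb-2 and, for act-4, inside the gene before its inner start.

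By pooled signal the order was tba-2 (117), act-2 (64.7), tbb-2 (55.9), act-4 (45.9), tba-1 (38.4) and tbb-1 (35.0), with act-1, act-3 and act-5 without a pooled promoter summit. The median of these 6 values was 50.9, against 34.1 over all 3679 genes with one. The order held only in part within replicates. In replicate 1, tba-2 came first, followed by act-4 (35.4), act-2 (34.0) and tbb-2 (31.5), which lay close together. In replicate 2, tba-2 came first and tbb-2 (29.4) next, and act-4 (21.1, at its outer start), act-1 (19.1) and act-2 (19.0) followed. In both replicates tba-2 was highest and tbb-2 stood above tba-1 and tbb-1. The order among act-2, act-4 and tbb-2 differed between the replicates, as did that of tba-1 and tbb-1.

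At equal list length the calls shifted with the replicate. Among the 970 strongest regions of replicate 1, promoter summits were found for 4 of the 9 genes (tba-2, act-2, tbb-2 and act-4; 4.47% of all genes). Among the 970 strongest of replicate 2 they were found for 2 (tba-2 and tbb-2; 4.63% of all genes). At this length the actin calls were thus absent when replicate 1 was left out. The full lists, which reach down to very weak regions, held promoter summits for 3 of 5 actins in replicate 1 and 4 of 5 in replicate 2. The shares of all genes there were 35.0% and 39.4%.

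The lean of act-2 to replicate 1 was within the usual range of IDR peaks. Its log2 ratio of replicate 1 to replicate 2 signal was 0.84. Of the 966 IDR peaks seen in both replicate lists, 147 had a higher ratio (15.2%). The median over those peaks was 0.29 with an SD of 0.58, and 5% of them lay above 1.25. The ratio was 0.49 for tba-2 and 0.10 for tbb-2. Below the IDR threshold the lean was larger for the stronger act-4 region (1.05, exceeded by 5.59% of 5650 pooled regions) and for tba-1 (1.25, exceeded by 2.85%). Over those pooled regions the median was 0.1, and 10.9% of them exceeded act-2. Signals of separate lists are not on a common scale, so the median of the ratio and not 0 is the point of reference.

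**Figure D3:**
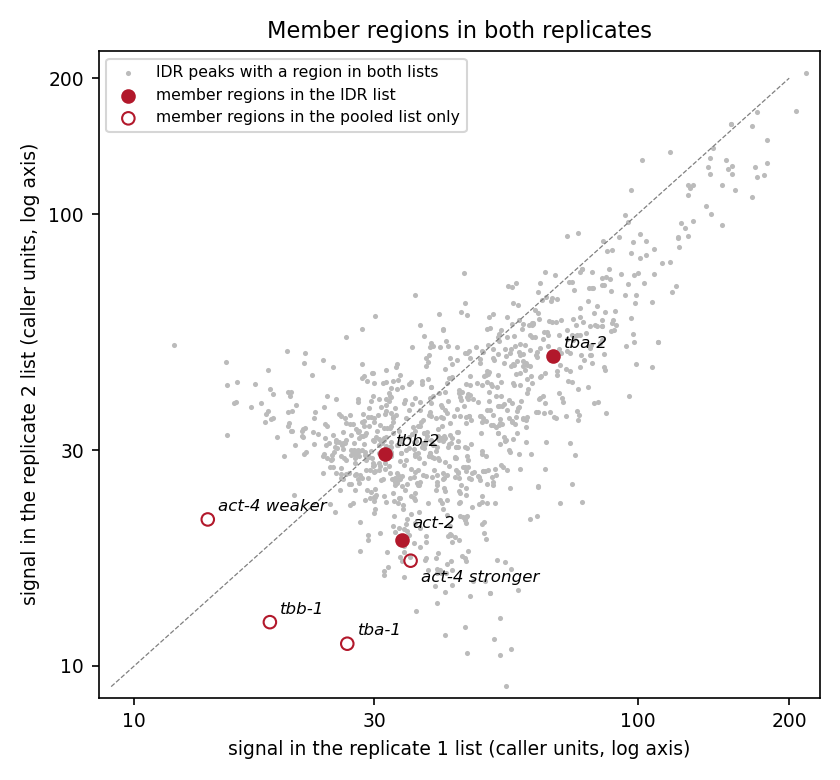
Signal of each region in the replicate 1 list (horizontal) and replicate 2 list (vertical), both in units of the peak caller on log axes, for IDR peaks (grey, those in both replicate lists) and for regions at the promoters of the actin and tubulin genes (red, filled where in the IDR list); the dashed line marks equal values. The filled tbb-2 point lies close to the line at 31.5 and 29.4, while act-2 at 34.0 and 19.0 and the stronger act-4 region at 35.4 and 17.1 lie well below it. The line is not the point of reference, since the lists share no scale. The median log2 ratio was 0.29 over IDR peaks and 0.1 over pooled regions.

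The genes with ranks most like those of act-2 and tba-2 were looked up. Likeness was the Euclidean distance of log2 ranks over the pooled and both replicate lists, among 3009 genes with a promoter summit in all 3. Nearest to act-2 were F10E9.7 and F10E9.5, which share a region (pooled rank 779, replicate ranks 787 and 2187, distance 0.34), and sna-3 (861, 729 and 2402, distance 0.41). Nearest to tba-2 were rpl-23, a ribosomal protein gene, and swp-1, which share a region (177, 172 and 238, distance 0.07), and M03C11.3 (164, 170 and 230, distance 0.10).

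Most of the summits lay in sequence rich in G and C. Of the 7 pooled windows of 101 bases, 5 were above 44.3%, the 95th percentile of the longer windows of 300 bases at all promoters. At the same length of 101 bases, 25.1% of all pooled windows and 65.8% of all IDR windows were above that value. The 101 bases around the pooled summit held 56.4% G and C at act-2, 58.4% at tbb-2, 54.5% at tba-1, 51.5% at the stronger act-4 region, 45.5% at tbb-1 and 42.6% at tba-2. The weaker act-4 region held 27.7%. The median was 47.5% over all IDR summits, with 5% of them under 33.7% and 5% over 59.4%, and 35.6% over all pooled summits. The sequence from 250 bp before to 50 bp after the outermost start was poorer in G and C at act-2 (33.7%) and tbb-2 (31.3%), where the median over all genes was 34.3%. At act-2 and tbb-2 the summit thus lay in a GC-rich stretch upstream of a start of ordinary G and C content. At tba-1 the start was also clearly poorer than the summit. At tba-2 (39.7%) and at tbb-1 the start was nearly as rich as the summit. Of the genes without a pooled promoter summit, act-3 had 50.3% at its outermost start, and act-1 and act-5 had less. The gene act-4 had 58.7% at its outer start. There its region was the weaker one in the pooled and replicate 1 lists and the stronger one in replicate 2.

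**Figure D4:**
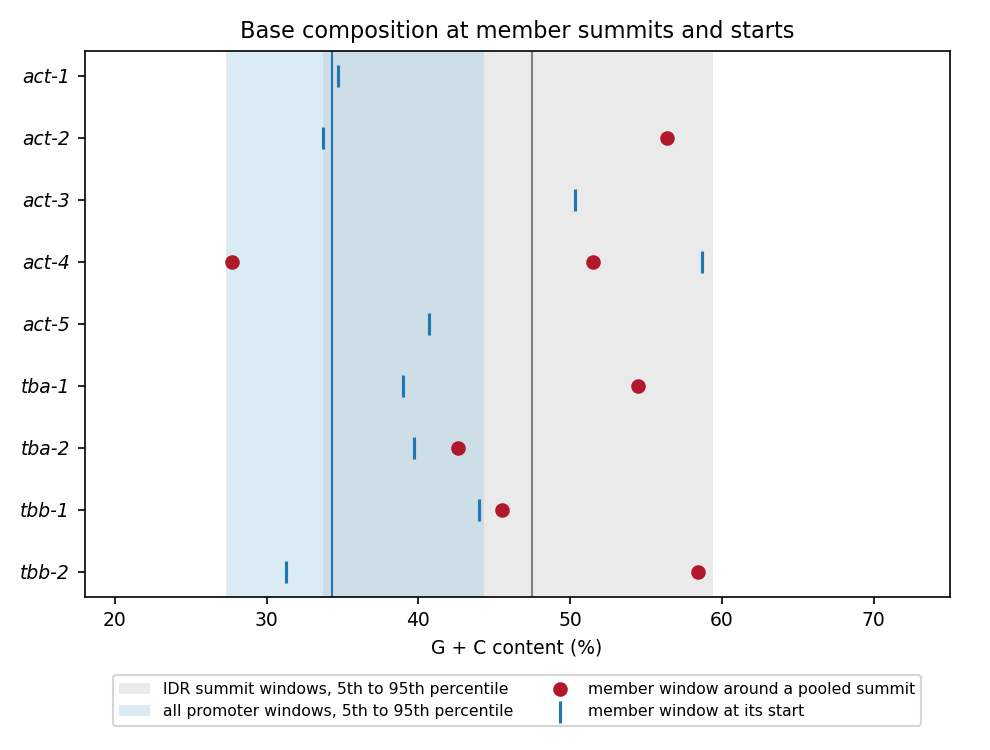
G and C content in percent (horizontal) of the 101 bases around each pooled promoter summit (red points) and of the 300 bases at the outermost start (blue ticks) of each gene; shaded bands run from the 5th to the 95th percentile of all IDR summits (grey) and all promoters (blue), with lines at the medians of 47.5% and 34.3%. The act-2 and tbb-2 points lie at 56.4% and 58.4%, far to the right of their own ticks at 33.7% and 31.3%. The tba-2 point at 42.6% lies close to its tick at 39.7%.

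Apart from GCGC, each of the short motifs searched was found in at most 1 of the 7 pooled windows. The nuclear receptor half-site AGGTCA was found on either strand in 1 of the 7 pooled windows, that of tba-2, where its first base lay 8 bp before the summit. It was found in 2.47% of IDR windows, 2.66% of pooled windows and 8.27% of the longer promoter windows of all genes. GAGAGA was found in the stronger act-4 window only, at both ends of the CA repeat printed above (31.5% of IDR windows and 14.2% of pooled windows). The GATA-type motif TGATAA was found in the weaker act-4 window only (2.06% of IDR windows and 8.51% of pooled windows). TATAAA and the palindrome CACGTG were found in none of the 7 (4.12% and 3.61% of IDR windows, 11.8% and 2.39% of pooled windows). The palindrome GCGC, searched after it was noticed in the printed windows, was found in 5 of the 7, at act-2, tbb-2, tba-2, tbb-1 and the stronger act-4 region. It was found in 50.4% of IDR windows, 19.4% of pooled windows and 28.7% of promoter windows. GCGC is a shorter word than the other motifs. The printed windows it was picked from are among the 7, so its count there is not independent of that choice. A match of letters is a description and no site.

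The annotation places a short noncoding RNA gene under the pooled summit at both act-2 and tbb-2. The act-2 summit lies in T04C12.18 and T04C12.24, which overlap on opposite strands, and the tbb-2 summit in C36E8.10. At tbb-2 the replicate 2 summit lay in C36E8.10 too, but the replicate 1 summit lay in no noncoding RNA gene. Of all IDR summits 81 (8.35%) lay in a gene of this class, and of all pooled summits 280 (3.64%).

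The coding sequences of act-1 and act-3 are almost wholly repeated in the genome, and the regions described here are not. The coding sequences of act-1 and act-3 were identical over 1128 bases, act-2 shared 96.2% of bases with them, act-4 94.1% and act-5 83.9%. Only 0.772% of words of 36 bases in the act-1 or act-3 coding sequence occurred once in the genome, so short reads from it cannot be assigned. All words of 36 bases in the regions at the 9 promoters occurred once, except in the stronger act-4 region with its repeat, where 98.5% did in the pooled list. With words of 50 bases all did. The length of the reads is not given in the sources used here.

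Promoter summits were also counted in other groups of cytoskeletal genes. Of 29 genes of actin assembly and binding 5 had an IDR promoter summit (17.2%, 5.85 to 35.8, against 4.66% of all genes). These were cap-2 (signal 105) and cap-1 (56.7), which encode both subunits of the capping protein, wve-1 (86.6) and gex-3 (57.7) of the WAVE complex that starts branched filaments, and vab-10 (60.4), which encodes a spectraplakin. The regions of cap-2, wve-1 and cap-1 also lay in a promoter of a neighbouring gene. Of 37 genes of microtubule motors and binding proteins 6 had one (16.2%, 6.19 to 32.0). The strongest were at cls-2, a CLASP gene (166), at klc-1, a kinesin light chain gene (152), and at dnc-3, a dynactin subunit gene (63.2). The cls-2 summit lay 996 bp upstream, at the edge of the promoter, and in that of R107.5 as well, and the klc-1 summit, 704 bp from its start, also lay in a promoter of let-70.

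The myosin and thin filament genes and the remaining tubulin genes had none in the IDR list. The counts were 0 of 27 genes of myosins and thin filament proteins (exact upper limit 12.8%) and 0 of 11 other tubulin genes (exact upper limit 28.5%), and both intervals include the 4.66% of all genes. The pooled list had 2 (7.41%, 0.91 to 24.3) and 3 (27.3%, 6.02 to 61.0) respectively, and both intervals include the 18.4% of all genes. The strongest were at the myosin light chain gene mlc-5 (51.9) and the beta tubulin gene tbb-6 (46.3). Among 15 genes of intermediate filaments and spectrins, spc-1, the alpha spectrin gene, had a strong region (132) and was the only one in the IDR list (6.67%, 0.169 to 31.9, which includes 4.66%). For scale, 55 of 77 cytosolic ribosomal protein genes had an IDR promoter summit (71.4%), led by rpl-3 (419), rpl-20 (327) and rpl-35 (285). Their pooled signals had a median of 76.2 over 71 genes, and of the actin and tubulin genes only tba-2 lay above it. Genes that share a region are not independent, and these shares were not tested against each other.

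**Figure D5:**
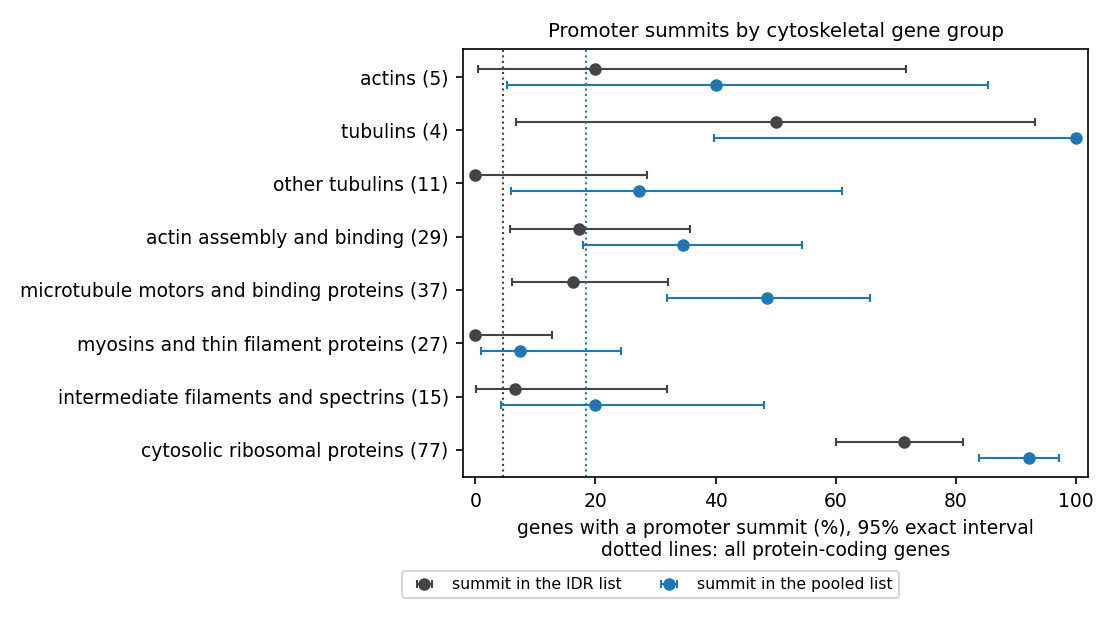
Percentage of genes in each group with a promoter summit in the IDR list (dark) and the pooled list (blue), with 95% exact intervals that cover counting of genes only; the number of genes stands in brackets and dotted lines mark all protein-coding genes, at 4.66% and 18.4%. The intervals of the 5 actins and 4 tubulins are wide, and the ribosomal protein genes lie at 71.4% and 92.2%.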

How the data were processed

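Peak lists in narrowPeak format were used, 4 on ce11. The deposited readme files state that a replicate list was made from the alignment of that replicate with a control alignment, that the pooled list used both replicates with a control as well, and that the IDR list was drawn from the other 3. For the aligner, the peak caller and the IDR threshold, nothing is stated in the sources used here. The signal is a score from the authors' caller with no stated scale. The deposited −log10 q column was quoted and not tested. The ce10 lists were not used here. The 970 IDR peaks were the 970 strongest pooled regions.

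Transcript starts came from Ensembl release 115 (WBcel235, the build ce11), and bases from RefSeq. Summits were column 2 plus column 10. Counting was done in Python 3.11.15 with pandas 2.3.3, intervals (95%, Clopper-Pearson) with scipy 1.17.1 and alignments with Biopython 1.88. The assignment of summits to promoters was checked on made-up positions. No test was made, since there is 1 group. Members and companion lists were chosen with earlier results of these data known. Named genes are the 9 members, genes sharing their summits, the 3 nearest in rank to the strongest actin and tubulin gene, and up to 3 genes of highest signal per companion list. Other genes at the regions described, the noncoding genes, cap-1, gex-3, mlc-5 and tbb-6 were named after their values were seen. The symbols tmd-1 and ifa-2 matched no gene.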

Additional observations from a re-analysis of the deposited data

How the results depend on the processing

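The count of 3 genes with an IDR promoter summit was 1 (tba-2) among the 485 strongest IDR peaks. It was 2 to 4 under the other alternatives: 2 with 500 bp upstream (without tbb-2), 4 with 2000 bp upstream or with any overlap (with tba-1), and 3 with no downstream part or with the nearest gene only. Leaving out a replicate meant taking the 970 strongest regions of the other replicate's own list in place of IDR peaks. This gave 2 (without replicate 1, act-2 lost) and 4 (without replicate 2, act-4 gained). The count of 6 with a pooled summit was 5 to 6 under 6 alternatives. The count of 6 with a summit in both replicate lists was 4 to 8 under 6 alternatives, the 4 being tba-2, act-2, tbb-2 and act-4 when each list was cut to its 7699 strongest regions. With replicate 2 alone it was 8 and with replicate 1 alone 7. Among single genes, the strongest pooled signal stayed the same in 26 comparisons, moved in 2 (tba-1, to 137) and was lost in 2 (tbb-2 with 500 bp upstream, tbb-1 with the nearest gene only). No paired analysis was possible because there is 1 group and no comparison between groups. Depth is unknown, so a missing region may be one below detection.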

Other observations

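Further regions lay upstream of the tubulin promoters, at their neighbours. The intergenic summit 1831 bp upstream of tba-2 ranked 990 in the pooled list with a signal of 52.0, just short of the IDR limit, and lay 346 bp from a start of pbs-2, a proteasome subunit gene, and 320 bp from one of eif-6, a translation initiation factor gene. It ranked 1296 in replicate 1 and 967 in replicate 2. The summit 2348 bp upstream of tbb-2 (signal 37.7, rank 1910) lay 62 bp from the start of snpc-3.4. Its ranks were 4509 in replicate 1 and 2039 in replicate 2. At the IDR limit, the signals of the pooled regions of rank 970 and 971 were 52.59 and 52.55.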
